A study of Mus musculus with 3 samples.

Results

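Genes of ion and bicarbonate transport across the intestinal epithelium were followed through 3 single-cell RNA libraries of the mouse small intestine. The 8 genes were taken by symbol from the 31053 genes of the gene list, and all 8 were found. They were Cftr, Slc26a3, Slc26a6, Slc9a3, Slc9a2, Car4, Clca4a and Clca4b, listed here by role and not by any measured value.

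The epithelium of the small intestine secretes chloride and bicarbonate and takes up sodium and chloride, and the direction of transport depends on which proteins sit in the apical membrane facing the lumen. Cftr is the cAMP-regulated apical chloride and bicarbonate channel that is defective in cystic fibrosis. Slc26a3 and Slc26a6 exchange chloride for bicarbonate, Slc9a3 and Slc9a2 exchange sodium for protons, and Car4 is a membrane-anchored carbonic anhydrase that interconverts bicarbonate and carbon dioxide outside the cell. Clca4a and Clca4b belong to a family of secreted or surface proteins that were first linked to calcium-activated chloride conductance. In the classical view secretion belongs to the crypt and absorption to the villus, while enterocytes move from the crypt up to the villus tip and are shed there.

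Each library came from 1 segment, the duodenum, the jejunum or the ileum, of wild-type (WT) male C57BL/6N mice 12 weeks old. Cells of 3 mice were pooled for each segment, and live cells negative for propidium iodide were sorted, so that epithelial cells and the immune cells lying among them were both present. One pool per segment carries no replicate, and differences between segments were therefore not tested. After the cell filters 16686 of 27235 barcodes were kept, 4255 of them duodenal, 4360 jejunal and 8071 ileal.

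The kept cells of a library held between 57079945 and 66148396 UMIs, which are single counted RNA molecules. The libraries differed in depth and quality: enterocytes had a median of 12211 UMIs and 28.9% mitochondrial UMIs in the duodenum, 12137 and 28.8% in the jejunum, and 6516 and 11.9% in the ileum. Between 4 and 12 kept barcodes were shared by any 2 libraries. The segment labels fitted known regional genes in enterocytes, where the ileal bile acid binding protein Fabp6 was at 133.6 UMIs per 10000 in the ileum against 0.000736 in the duodenum, and the duodenal iron exporter Slc40a1 was at 3.78 in the duodenum against 0.00210 in the jejunum. Clustering gave 10318 enterocytes, 1058 early enterocytes, 224 stem or proliferating cells (ISC/proliferating), 747 goblet, 299 tuft, 171 enteroendocrine (EEC) and 24 Paneth cells. The immune classes held 1976 cells, 1224 of them T cells, and 1869 cells stayed unnamed. Some enterocyte clusters were led by haemoglobin or interferon-response genes. The ISC/proliferating cells carried summed T cell markers at 12.7 and 17.9 UMIs per 10000 in the jejunum and ileum against 0.00539 in the duodenum, and summed Paneth markers at 36.0 and 12.9 against 2.57; the part of these cells in the results was not tested.

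The genes lie on 7 chromosomes of GRCm38. Cftr (ENSMUSG00000041301) spans chr6:18170687-18322768, Slc26a3 (ENSMUSG00000001225) chr12:31390871-31473917, and Slc26a6 (ENSMUSG00000023259) chr9:108853283-108913049. Slc9a3 (ENSMUSG00000036123) spans chr13:74121457-74169442, Slc9a2 (ENSMUSG00000026062) chr1:40680574-40769273, and Car4 (ENSMUSG00000000805) chr11:84957786-84966044, all 6 on the plus strand. Clca4a (ENSMUSG00000068547, chr3:144952480-144975045) and Clca4b (ENSMUSG00000074195, chr3:144910921-144932529) are neighbours on the minus strand, 19950 bases apart. Their transcripts are 95.6% identical over 2996 aligned bases, yet the last 500 bases, from which a 3′ library is counted, are 91.3% identical and share no run of 50 bases. The counts of both genes still carry an uncertainty from reads that match either copy. Genes on the opposite strand overlap Cftr (Gm15592), Slc9a2 (Gm37623) and Clca4a (Gm16233).

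Promoters of 6 of the 8 genes were found in RefSeq (GRCm38.p6), taken as 250 bases before to 50 after a start site. Slc9a2 and Clca4a had no entry. The promoters of the channel Cftr and the exchanger Slc9a3 were rich in G and C, at 71.3% and 68.7% against a median of 52.7% over all promoters, whereas that of Slc26a3 was at 39.3%. Both strands were searched for short motifs. The GC box GGGCGG occurred 6 times in the Cftr promoter, 3 times in that of Slc9a3 and once in that of Slc26a6, and 35.7% of 32851 promoters held it. The TATA box TATAAA occurred in the Slc26a3 promoter, 30 bases before the start, and in 13.6% of all promoters. The 30-base windows below show this contrast between a TATA-type start and GC-box starts, with the motif in capitals.
Slc26a3, chr12:31438177-31438206, plus strand: ctacataacctaTATAAAgacatctataat
Cftr, chr6:18170608-18170637, plus strand: tggctttaacctGGGCGGcggaggcgtggg
Slc9a3, chr13:74121385-74121414, plus strand: taaaggccacccGGGCGGgcctggggacct
The Slc26a3 window lies inside the annotated gene span, at one of its internal starts. TATAAA was also found once in the Car4 promoter, after the start, and on the opposite strand in that of Clca4b, 2 times. The HNF1 motif GTTAAT occurred 2 times in the Slc26a3 promoter and once in that of Clca4b, against 7.10% of all promoters, and the CDX motif TTTATG once in that of Clca4b, against 11.85%. No match to the GATA motif AGATAA (11.2% of promoters) or the HNF4 motif CAAAGTCCA (0.475%) was found in the 6 windows.

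Levels are given as UMIs per 10000 UMIs of the summed cells of a class or zone, with exact 95% Poisson intervals for counting error alone. The villus axis was cut into 5 zones of equal cell number within each library, from zone 1 at the bottom to zone 5 at the tip. The score came from 8 bottom and 10 tip landmark genes. The bottom landmarks were Gpx2, Lypd8, Nlrp6, Il18, Dmbt1, Pigr, Reg3b and Reg3g. All of them except Il18 were also markers used to name early enterocytes. The early enterocyte and zone 1 results are therefore not independent of each other. It held 11374 enterocytes and early enterocytes, and early enterocytes made up 41.3%, 35.4% and 44.2% of zone 1 in the duodenum, jejunum and ileum. The median depth moved along this axis as well, from 16930 UMIs in zone 1 to 8339 in zone 5 of the duodenum, from 18420 to 11110 in the jejunum, and from 11230 to 7326 along the ileal villus. The part of depth in the zone results was not tested. Leaving out cells with fewer than 3000 UMIs gave 17 calls in place of 18. Over all genes the share called in zone 5 against zone 3 then went from 30.55% to 27.9%. The limit of 3000 UMIs is below the median of every zone and does not level the depth between zones.

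Along the villus the 8 genes went in opposite directions. In zone 5 against zone 1, Slc26a6, Slc9a2, Clca4a and Clca4b were higher and Cftr, Slc26a3 and Car4 were lower, while Slc9a3 did not pass the test. The test was edgeR's quasi-likelihood test on UMIs summed per library and zone with a block for each library, and p-values were adjusted by Benjamini-Hochberg over 11024 genes, the 8 included. The background was broad, since 33.8% of all genes were called higher and 36.2% lower in this comparison, and the median log2 fold change was 0.10 over the 8 genes and -0.06 over all genes. In zone 3 against zone 1 the same 4 genes were higher and the same 3 lower, with 25.3% and 24.7% of all genes called. In zone 5 against zone 3, Slc9a2 and Clca4a were higher and Cftr and Slc26a3 lower, with 16.3% and 14.3% called.

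These fold changes are relative to the bulk of genes through TMM scaling. Without it the median of all genes shifted by -0.55 on the log2 scale in zone 5 against zone 1, by -0.21 in zone 3 against zone 1 and by -0.34 in zone 5 against zone 3, and the share of calls that were higher went from 48.25% to 27.0%, from 50.6% to 35.1% and from 53.2% to 16.4%. The 3 libraries are 3 segments of pooled mice, so the p-values measure the spread between segments around a common zone effect. Without the library block 6 of the 18 zone calls were left, namely Cftr, Slc26a3, Slc9a2, Clca4a and Clca4b in zone 5 against zone 1 and Slc9a2 in zone 3 against zone 1. Calls over all genes fell with them, to 43.7% in zone 5 against zone 1, 13.0% in zone 3 against zone 1 and 0.00907% in zone 5 against zone 3. Without the jejunal library edgeR called 0 of 11185 genes in zone 5 against zone 3, although 3097 had an unadjusted p under 0.05. The calls of the 8 genes in that comparison were lost with all others, and the log2 differences were then -1.46 for Cftr, -2.90 for Slc26a3, 0.99 for Slc9a2 and 4.57 for Clca4a.

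**Figure D1:**
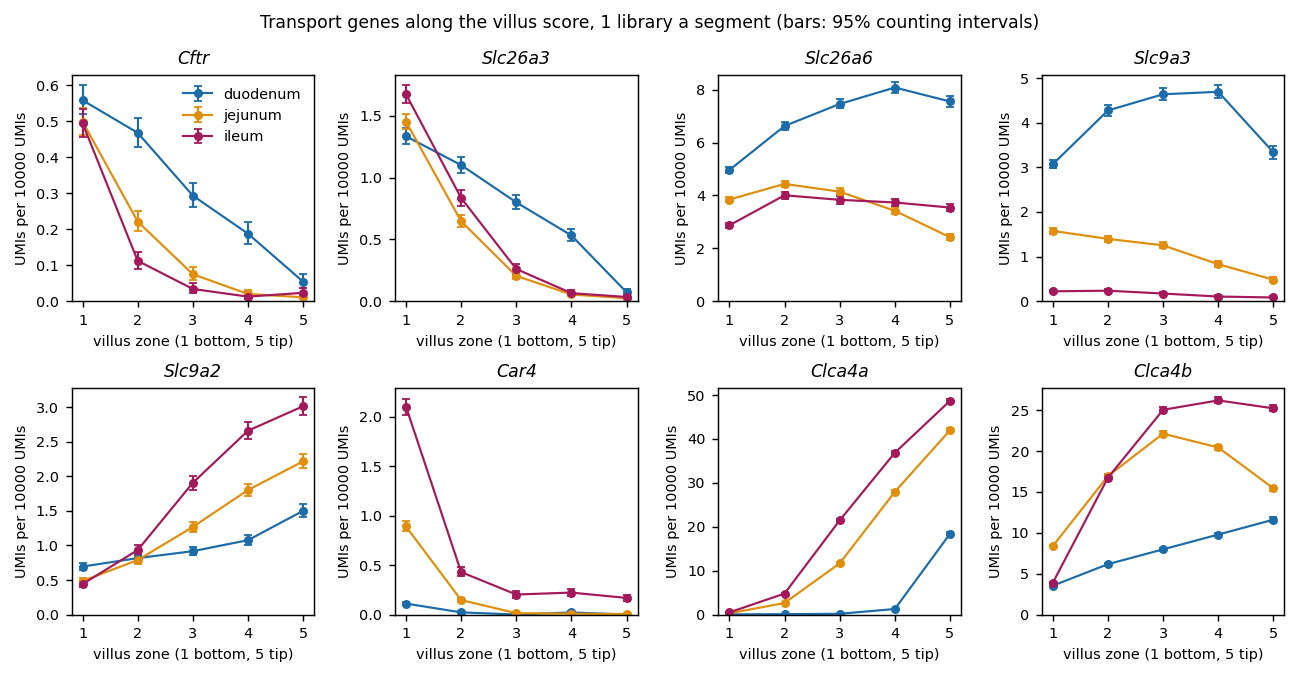
Level of each of the 8 genes (UMIs per 10000 UMIs, vertical axis, one scale per panel) in villus zones 1 to 5 (horizontal axis) of the duodenum, jejunum and ileum; points are sums over the cells of a zone and bars are exact 95% counting intervals. Cftr and Slc26a3 go down from zone 1 to zone 5 in all 3 segments, and Slc9a2 and Clca4a go up.

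The class contrasts, 6 in number, set other cell classes against enterocytes, each on library sums in one fit over 12734 genes. Early enterocytes had more Cftr, Slc26a3 and Car4 and less Slc9a2, Clca4a and Clca4b than enterocytes, where 19.0% of all genes were called higher and 21.4% lower. ISC/proliferating cells had more Cftr and Car4 and less of the other 6, where 30.7% were called higher and 31.6% lower. In goblet, tuft, EEC and T cells 7 of the 8 genes were lower and none was higher than in enterocytes, with Car4 as the gene not called in each. The background there was 16.8% higher and 21.3% lower in goblet cells, 21.4% and 24.4% in tuft cells, 26.9% and 26.8% in EECs, and 29.6% and 31.9% in T cells.

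The scaling moved the class contrasts too. Without TMM the median of all genes shifted by 0.34 on the log2 scale in early enterocytes, 0.77 in ISC/proliferating cells, 0.06 in goblet cells, 0.60 in tuft cells, 0.85 in EECs and 0.86 in T cells. The share of calls that were higher went from 47.0% to 69.8% in early enterocytes, from 49.2% to 71.8% in ISC/proliferating cells, from 46.7% to 72.3% in tuft cells, from 50.05% to 78.3% in EECs and from 48.1% to 70.6% in T cells, and in goblet cells it was 44.0% and 47.35%. The counts of the 8 genes called higher and lower in each class contrast were the same on that scale. Without the library block 4 of the 42 class calls were lost, those of Car4 in ISC/proliferating cells (adjusted p = 0.380) and of Slc9a3 in goblet cells (adjusted p = 0.111), EECs (adjusted p = 0.0688) and T cells (adjusted p = 0.109).

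**Figure D2:**
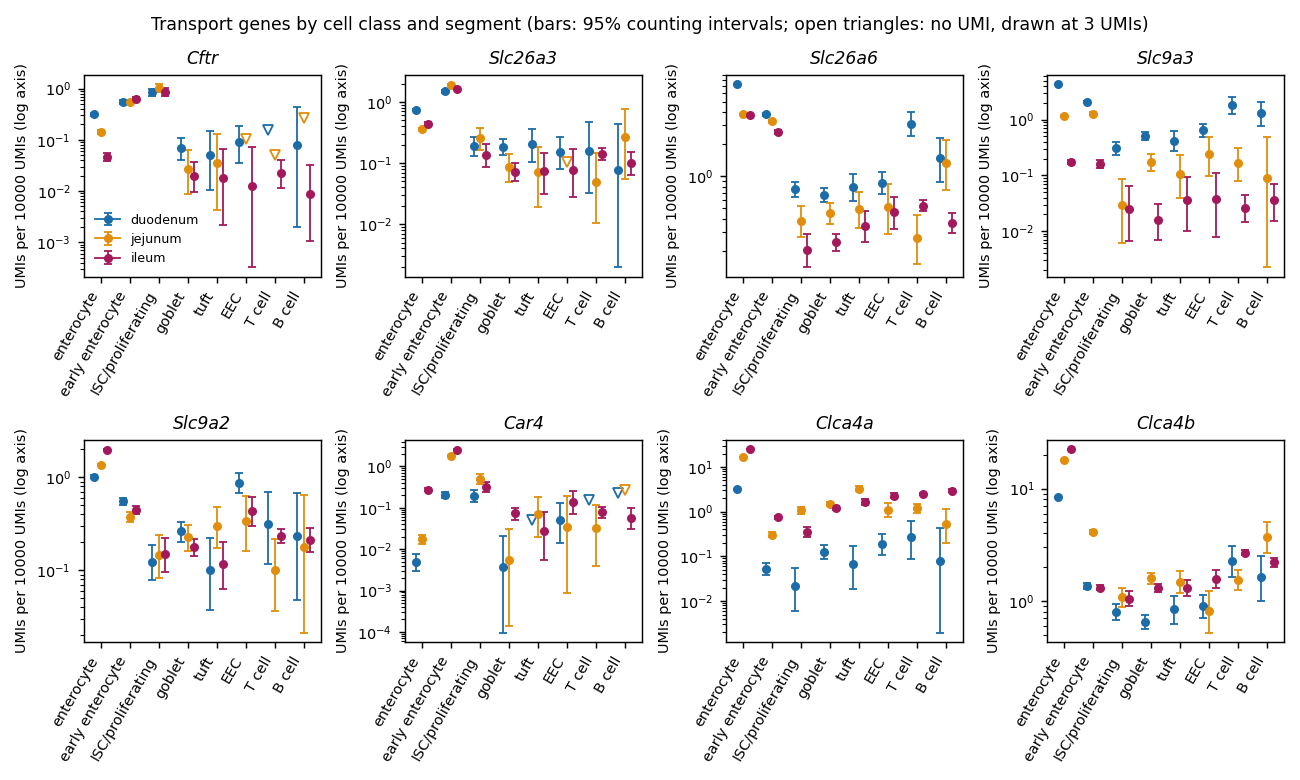
Level of each gene (UMIs per 10000 UMIs, log axis) in 8 cell classes, one point per library with exact 95% counting intervals; open triangles stand for sums with no UMI and are drawn at the level of 3 UMIs. Cftr is highest in ISC/proliferating and early enterocytes, and Clca4a and Clca4b are highest in enterocytes.

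**Figure D3:**
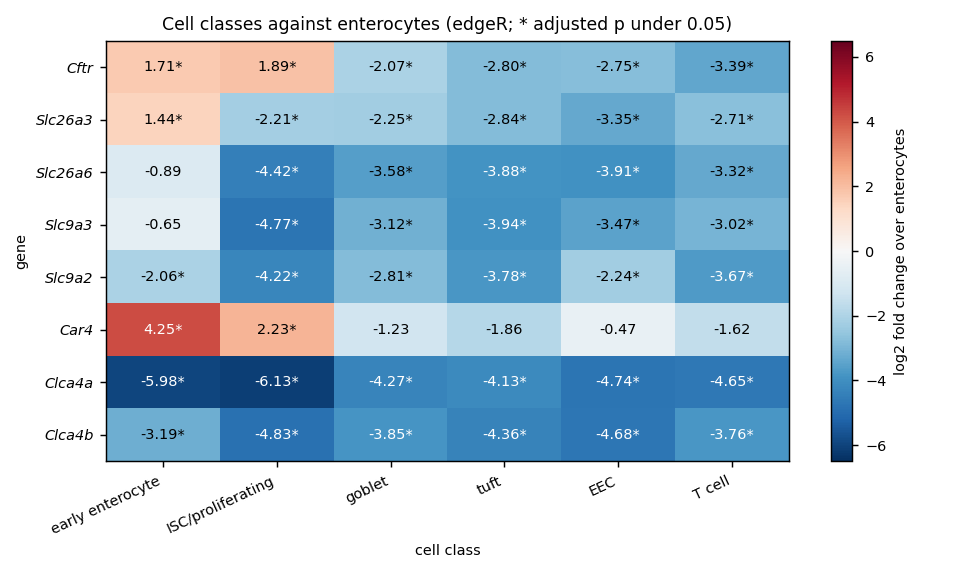
Heat map of the fitted log2 fold change of the 8 genes (rows) in 6 cell classes against enterocytes (columns), with a star where the adjusted p was under 0.05. Car4 has no star in the goblet, tuft, EEC and T cell columns, and Cftr and Car4 are the genes with positive values in ISC/proliferating cells.

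Cftr, the secretory channel, was a gene of the villus bottom and the crypt. In ISC/proliferating cells its level was 0.846 UMIs per 10000 (duodenum), 1.03 (jejunum) and 0.858 (ileum), and in early enterocytes 0.551, 0.554 and 0.620. In enterocytes it was 0.315, 0.141 and 0.0461. All ISC/proliferating and early values lay above all enterocyte values. The log2 difference from enterocytes was 1.89 ± 0.38 (SE, 3 libraries) in ISC/proliferating cells, with an adjusted p of 9.96e-05, and 1.71 ± 0.37 in early enterocytes, with an adjusted p of 0.000563. Cftr was higher in 3 of 3 libraries in both comparisons.

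In zone 1 Cftr was at 0.559 (duodenum), 0.4995 (jejunum) and 0.495 (ileum), so the 3 segments started at a close level. In zone 3 it was at 0.294, 0.0750 and 0.0342, and in zone 5 at 0.0543, 0.0110 and 0.0234. The level went down more slowly along the duodenal villus than in the other two segments, a difference that was not tested. Zone 5 was lower than zone 1 by a log2 difference of -3.98 ± 0.56 (adjusted p = 4.015e-05), in 3 of 3 libraries and with no overlap. Zone 3 was lower than zone 1, at -2.28 (adjusted p = 0.0016), and zone 5 lower than zone 3, at -1.69 (adjusted p = 0.0449). The last call was lost without the duodenal library (-1.33, adjusted p = 0.0944) and among cells with at most 20% mitochondrial UMIs (-1.40, adjusted p = 0.266).

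In summed enterocytes the ileum held 0.147 times the duodenal Cftr level, with a 95% counting interval from 0.123 to 0.174. That gap depended on which cells were summed. With zone limits common to the 3 libraries, zone 1 levels were 0.546, 0.5045 and 0.519 in the duodenum, jejunum and ileum, and zone 3 levels 0.2325, 0.101 and 0.0365. With these 5 zones weighted equally the log2 difference of ileum from duodenum went from -2.77 to -0.83, and with early enterocytes and their nearest unnamed cluster counted as enterocytes it was -0.80.

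The share of cells with at least 1 Cftr UMI depends on depth, so each cell was also thinned to 800 UMIs. Thinned, 2.08% of duodenal, 0.959% of jejunal and 0.336% of ileal enterocytes had a UMI, against 26.6%, 12.5% and 3% without thinning. Thinned shares of early enterocytes were 4.42%, 6.45% and 4.56%, and those of ISC/proliferating cells 6.49%, 5.26% and 5.56%. T cells, which should lack the gene, had a median of 4089 to 4631 UMIs and no thinned cell with Cftr, with exact 95% upper limits of 10.0%, 3.36% and 0.341%. The ileal T cell level was 0.0226 UMIs per 10000 (12 UMIs in 1081 cells), close to the 0.0234 of the ileal villus tip. The immune classes together held 0.0739 in the duodenum (8 UMIs) and 0.0132 in the jejunum (2 UMIs). Both lay above the tip values of 0.0543 and 0.0110 in these segments. The Cftr tip values of the 3 segments were therefore not read as expression. The size of the fold from zone 1 to zone 5 is relative to that background. In goblet cells Cftr was at 0.0684, 0.0269 and 0.0198, and in EECs 7 duodenal, 0 jejunal and 1 ileal UMIs were found.

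Slc26a3, which exchanges luminal chloride for bicarbonate and is mutated in congenital chloride diarrhoea, had its highest level in early enterocytes. There it was at 1.49, 1.89 and 1.63 UMIs per 10000 in the duodenum, jejunum and ileum, against 0.744, 0.357 and 0.440 in enterocytes and 0.189, 0.255 and 0.136 in ISC/proliferating cells. The 3 classes did not overlap. Early enterocytes were above enterocytes by a log2 difference of 1.44 ± 0.29 (adjusted p = 0.000268), and ISC/proliferating cells were below it, at -2.21 (lower in 3 of 3 libraries). So Cftr and Slc26a3 shared the villus bottom and parted in the crypt cells, where Cftr was above and Slc26a3 below its enterocyte level. The ileal ISC/proliferating level of Slc26a3 was below that of ileal T cells and was not read as expression.

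Along the villus Slc26a3 went from 1.335 in zone 1 to 0.0729 in zone 5 of the duodenum, from 1.45 to 0.0245 in the jejunum, and from 1.675 to 0.0344 along the ileal villus. Every zone 1 value was far above every zone 5 value. The fitted log2 difference was -4.82 ± 0.54 (adjusted p = 6.75e-06), split into -1.99 in zone 3 against zone 1 (adjusted p = 0.00275) and -2.83 in zone 5 against zone 3 (adjusted p = 0.00454). The first of these steps was -1.72 without the ileal library (adjusted p = 0.0514) and -1.66 without the jejunal library (adjusted p = 0.0689). In each library the zone 5 level was below that of its T cells, at 0.159, 0.0498 and 0.141, so the tip values were not read as expression and the size of the fold is relative to that background. In zone 3 the duodenum was at 0.8004, against 0.205 (jejunum) and 0.261 (ileum). With zone limits common to the 3 libraries zone 3 was at 0.649, 0.281 and 0.374.

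The segment order of Slc26a3 in enterocytes was not stable. The ileum was at 0.591 times the duodenum (0.555 to 0.630), a log2 difference of -0.76, but with zones of common limits weighted equally the difference was 0.0099, and with early enterocytes included it was -0.12. The jejunum was lowest in the summed enterocytes, and the ileum was lowest when T cell levels were subtracted, at 0.299 against 0.307.

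Slc26a6, the chloride, bicarbonate and oxalate exchanger of the brush border, was spread over the whole villus. Its enterocyte level was 7.31 (duodenum), 3.80 (jejunum) and 3.79 (ileum). The ileum held 0.519 times the duodenal level (0.508 to 0.530), while ileum and jejunum differed by a ratio of 0.996 (0.973 to 1.02). Among cells with at most 20% mitochondrial UMIs the jejunum was at 3.54 and the ileum at 3.78. T cells held 3.13 in the duodenum (59 UMIs in 35 cells), 0.266 for the jejunum and 0.530 among ileal cells, and with these levels subtracted the log2 difference of ileum from duodenum went from -0.95 to -0.36. In early enterocytes the levels were 3.82, 3.27 and 2.61, overlapping those of enterocytes, and the log2 difference of -0.89 ± 0.40 did not pass (adjusted p = 0.0766). ISC/proliferating cells, at 0.755, 0.382 and 0.204, were lower in 3 of 3 libraries, at -4.42 on the log2 scale, and 2 of these 3 levels were below those of T cells.

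The zones of Slc26a6 differed by less than 2-fold within any library. In the duodenum the level went from 4.96 in zone 1 to 8.08 in zone 4 and 7.55 in zone 5. In the jejunum it went from 3.85 to 4.44 in zone 2 and down to 2.42 in zone 5, and in the ileum from 2.87 to 4.01 in zone 2 and 3.54 in zone 5. The call of higher in zone 5 than in zone 1 (log2 difference 0.64 ± 0.17, adjusted p = 0.0051) therefore rested on the duodenum and the ileum, and the values overlapped. Without TMM it was 0.09 (adjusted p = 0.685), without the duodenal library 0.44 (adjusted p = 0.0866) and without the ileal library 0.52 (adjusted p = 0.0883). Zone 3 against zone 1 was higher in 3 of 3 libraries (0.56, adjusted p = 0.0157, and 0.35 without TMM, adjusted p = 0.160), and was lost without the duodenal library (adjusted p = 0.0608) or the ileal one (adjusted p = 0.135).

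Slc9a3, known as NHE3 and the main apical sodium/proton exchanger of sodium absorption, had the steepest gradient of the 4 genes that were lower in the ileum. In enterocytes it was at 4.36 UMIs per 10000 (duodenum), 1.16 (jejunum) and 0.177 (ileum). The jejunum held 0.266 times and the ileum 0.0407 times the duodenal level (0.0374 to 0.0443 for the ileum). Early enterocytes had the same order, at 2.08, 1.28 and 0.158. In duodenal T cells Slc9a3 was at 1.80 (34 UMIs in 35 cells), against 0.166 in jejunal and 0.0264 in ileal T cells, so the T cells had the same order of segments at lower levels.

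Slc9a3 did not pass in zone 5 against zone 1 (log2 difference -0.43 ± 0.26, adjusted p = 0.146), nor in early enterocytes against enterocytes (-0.65 ± 0.32, adjusted p = 0.115). In the duodenum it went from 3.07 in zone 1 to 4.69 in zone 4 and 3.335 in zone 5. In the jejunum it went from 1.575 to 0.483 and in the ileum from 0.222 to 0.0840. The duodenum was thus level or higher at the tip, and the jejunum and ileum lower. With zone limits common to the 3 libraries the duodenum was at 3.175 in zone 1 and 2.81 in zone 5. Without TMM the log2 difference was -0.99 (adjusted p = 0.0099), and without the duodenal library it was -0.97 (adjusted p = 0.00036). ISC/proliferating cells were lower than enterocytes, at -4.77 on the log2 scale, with levels of 0.307, 0.0294 and 0.0247 that were all below those of T cells.

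Slc9a2, known as NHE2 and the other apical sodium/proton exchanger, went the opposite way along the intestine. Its enterocyte level was 1.02 (duodenum), 1.34 (jejunum) and 1.96 (ileum), and the ileum was 1.93 times the duodenum (1.85 to 2.01). It also went up along the villus in each segment, from 0.695 in zone 1 to 1.502 in zone 5 of the duodenum, from 0.486 to 2.22 along the jejunal and from 0.441 to 3.02 along the ileal villus. Zones 1 and 5 did not overlap, and the log2 difference was 2.48 ± 0.34 (adjusted p = 3.545e-05). Zone 3 was above zone 1 by 1.41 (adjusted p = 0.00377) and zone 5 above zone 3 by 1.07 (adjusted p = 0.0279), the latter 0.73 without TMM (adjusted p = 0.058). The step from zone 1 to zone 3 was 1.27 without the jejunal library (adjusted p = 0.0969), and without the ileal library the steps were 1.00 (adjusted p = 0.0591) and 1.12 (adjusted p = 0.0518).

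At the villus bottom the order of the segments for Slc9a2 was turned round, with 0.695 in the duodenum above 0.486 and 0.441. Early enterocytes, at 0.552, 0.373 and 0.442, were lower than enterocytes in 3 of 3 libraries, at -2.06 on the log2 scale (adjusted p = 7.39e-06). ISC/proliferating cells, at 0.124, 0.147 and 0.148, were lower still, at -4.22, and their duodenal and ileal levels were below those of T cells. EECs held 0.874, 0.340 and 0.434, below enterocytes of the same library in 3 of 3, and above the T cell levels of 0.318, 0.0996 and 0.236.

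Car4, the apical carbonic anhydrase, was concentrated in early enterocytes of the jejunum and ileum. Its level there was 1.77 and 2.54, against 0.203 in the duodenum, and in enterocytes 0.0172 in the jejunum, 0.277 in the ileum and 0.00491 in the duodenum. Early enterocytes were higher in 3 of 3 libraries, and the duodenal early value lay below the ileal enterocyte value. The log2 difference was 4.25 ± 0.57 (adjusted p = 1.06e-06). In ISC/proliferating cells Car4 was at 0.194, 0.4997 and 0.321, a log2 difference of 2.23 ± 0.61 (adjusted p = 0.00215) that was 0.99 without the duodenal library (adjusted p = 0.228) and 1.685 without the jejunal library (adjusted p = 0.0755).

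Zone 1 held most of the Car4 of the villus, at 0.111 (duodenum), 0.890 (jejunum) and 2.10 (ileum). Zone 5 held 0.00489 (jejunum) and 0.168 (ileum), and no UMI was found in zone 5 of the duodenum, with an exact 95% upper limit of 0.00572 UMIs per 10000. The zone 5 value of the ileum lay above the zone 1 value of the duodenum. The fitted log2 difference was -4.27 ± 0.71 (adjusted p = 0.000167), most of it between zones 1 and 3 (-4.31, adjusted p = 0.00031), while zone 5 against zone 3 gave 0.04 (adjusted p = 0.975). In the ileum the levels of zones 3 to 5, from 0.168 to 0.222, were above the 0.0773 of ileal T cells.

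Car4 was concentrated in few cells. The 1% of enterocytes and early enterocytes with the most Car4 UMIs held 80.95% of the duodenal, 48.1% of the jejunal and 26.6% of the ileal Car4 UMIs, and up to 44 UMIs were found in 1 cell. For Slc26a6 the same share was 3.58% to 5.74%. In summed enterocytes the ileum was at 56.4 times the duodenum, with an interval from 36.3 to 92.7, and the log2 difference of 5.82 was 4.55 among cells with at most 20% mitochondrial UMIs. With T cell levels subtracted the jejunum was at 0.

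Clca4a had the largest fitted change from zone 1 to zone 5 among the 8, although within the jejunum the log2 ratio of Car4 was larger (-7.51 against 7.20). It went from 0.0415 UMIs per 10000 in zone 1 to 18.4 in zone 5 of the duodenum, from 0.286 to 42.0 along the jejunal and from 0.492 to 48.7 along the ileal villus. All zone 5 values were above all zone 1 values, and the fitted log2 difference was 8.68 ± 1.07 (adjusted p = 1.42e-05). The steps between zones, which were cut within each library, differed by segment. In the duodenum zone 3 was at 0.172 and zone 4 at 1.26, so that most of the rise came in zone 5, whereas zone 3 was at 11.7 (jejunum) and 21.45 (ileum). Zone 3 was above zone 1 by 4.93 on the log2 scale (adjusted p = 0.00094) and zone 5 above zone 3 by 3.75 (adjusted p = 0.0104). The zone 1 levels were below those of T cells, at 0.265, 1.21 and 2.52, so these folds are relative to a level not read as expression.

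In summed enterocytes Clca4a was at 3.23 (duodenum), 16.7 (jejunum) and 25.1 (ileum), 7.76 times the duodenal level (7.62 to 7.90). With common zone limits the zone 3 levels were 0.645, 8.54 and 14.9, and the tip levels 26.3, 40.5 and 47.4. With these zones weighted equally the log2 difference of ileum from duodenum went from 2.96 to 1.65. Thinned to 800 UMIs, 48.4% of duodenal, 84.9% of jejunal and 89.25% of ileal zone 5 cells had a Clca4a UMI, against 2.86%, 6.48% and 6.20% of T cells. Early enterocytes, at 0.0529, 0.305 and 0.754, were lower than enterocytes, at -5.98 on the log2 scale (adjusted p = 9.15e-09). ISC/proliferating cells, at 0.0216, 1.07 and 0.358, were lower, at -6.13. These values, and the goblet levels of 0.125, 1.49 and 1.21, were at or below the T cell levels, except in jejunal goblet cells, and were not read as expression.

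Clca4b, its neighbour, was found along the whole villus. It was already at 3.53, 8.38 and 3.89 in zone 1 of the duodenum, jejunum and ileum. Its highest level was in zone 5 of the duodenum (11.6), zone 3 of the jejunum (22.1) and zone 4 of the ileum (26.2). Zone 5 was above zone 1 in 3 of 3 libraries with no overlap, by a log2 difference of 2.25 ± 0.30 (adjusted p = 2.88e-05), and zone 3 above zone 1 by 1.88 (adjusted p = 0.00032). Zone 5 against zone 3 did not pass (0.37, adjusted p = 0.347). In summed enterocytes the levels were 8.34, 18.0 and 22.3, and the ileum was at 2.68 times the duodenum (2.64 to 2.71). Early enterocytes, at 1.36, 4.11 and 1.32, were lower, at -3.19 on the log2 scale (adjusted p = 8.68e-06). T cells held 2.28, 1.54 and 2.68, above the duodenal and ileal early values and below those of zone 1.

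**Figure D4:**
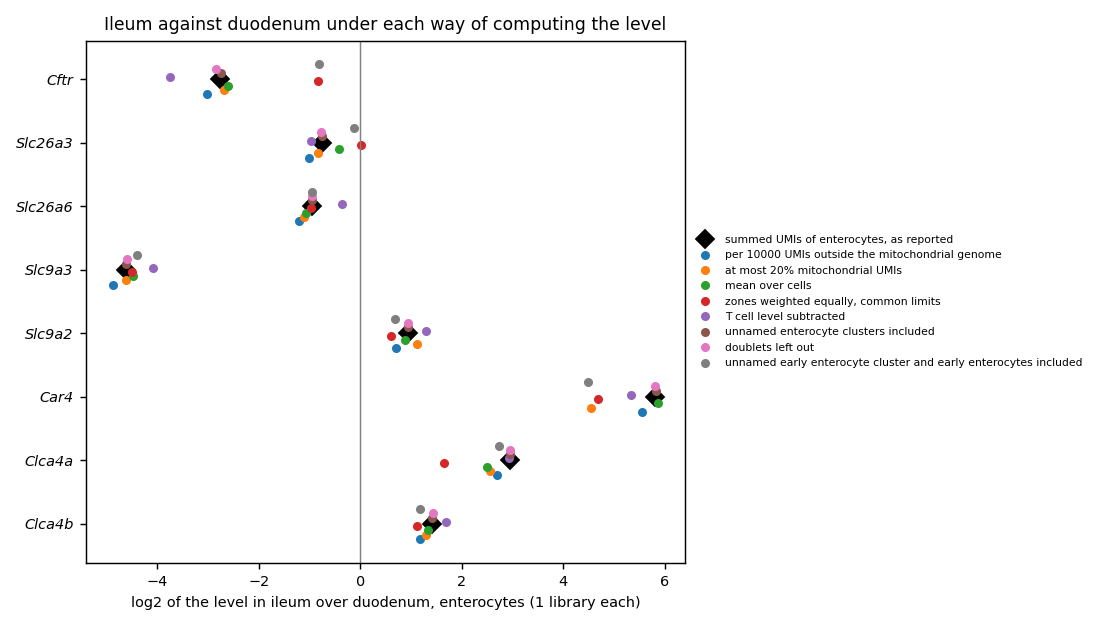
Log2 ratio of the ileal over the duodenal enterocyte level (horizontal axis) of the 8 genes under 9 ways of summing the cells, one marker per way. Cftr and Slc9a3 stay below 0 and Slc9a2, Car4, Clca4a and Clca4b above 0 under each, while Slc26a3 reaches 0.0099 with zones weighted equally.

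Across segments, then, Slc9a2, Car4, Clca4a and Clca4b were higher in ileal than in duodenal enterocytes and Cftr, Slc26a6 and Slc9a3 lower, while Slc26a3 was lower in the summed cells but at a log2 difference of 0.0099 with zones weighted equally. By direction alone, 46.9% of the 13264 genes with at least 10 UMIs in these sums were higher and 53.1% lower in the ileum, so the count of 4 higher and 4 lower was near the background and is not a result about the 8 genes. The 2 sodium/proton exchangers went in opposite directions. With 1 library per segment, a difference between segments cannot be told apart from one between libraries, whose enterocytes also differed in depth and mitochondrial share (28.9% and 11.9%).

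Rank correlations between genes over the cells of a library were low to moderate for the pairs given here. The rank correlation of Cftr and Slc26a3 over cells was 0.33 in the duodenum (3578 cells), 0.42 in the jejunum (3512) and 0.33 in the ileum (4284). Within zones its mean was 0.14, 0.12 and 0.07. For Slc9a2 and Clca4a it was 0.17, 0.51 and 0.55 over cells and 0.07, 0.26 and 0.26 within zones. For Slc26a6 and Slc9a3 it was 0.34, 0.27 and 0.07, and 0.32, 0.18 and 0.08 within zones. Cells of one library are not replicates and differ in depth, and the part of depth in these correlations was not tested. Counts per cell were also sparse, with a median level of 0 for Cftr and for Slc26a3 in each library, so many ranks were ties. Low correlations therefore do not show that different cells held the genes. The values are descriptions.

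Over the 15 sums of 5 zones in 3 libraries, each taken relative to its library mean, the genes most like each of the 8 were found among 4688 genes by Pearson's r. Cftr was most like Hexa (0.994), Reg3a (0.990) and Apoo (0.990), and Slc26a3 most like Lcmt1 (0.995), Tomm70a (0.9945) and Lrp6 (0.994). Slc26a6 was most like Hpgd (0.933), Nr3c2 (0.928), which encodes the mineralocorticoid receptor, and Dgat1 (0.928). Slc9a3 was most like the brush border protease gene Mep1b (0.984), Tdp2 (0.979) and Baz1b (0.976). Slc9a2 was most like Cd55 (0.993), Ccdc68 (0.991) and Lpin2 (0.991), and Clca4a most like 2010109I03Rik (0.997), Map2k2 (0.996) and Lamb3 (0.996). Car4 was most like the ribosomal protein genes Rps20 (0.961) and Rps15a (0.961) and Mrps18c (0.958), and Clca4b most like Optn (0.989), Aldh4a1 (0.986) and Bst1 (0.986). Among the 8 genes themselves r was 0.96 between Cftr and Slc26a3, 0.89 between Slc9a2 and Clca4a, 0.82 between Clca4a and Clca4b, and -0.96 between Cftr and Slc9a2. The 15 sums share 3 libraries and one zone score, so likeness along a common axis is high for many genes. Reg3a is also a relative of Reg3b and Reg3g, which are landmarks of that score.

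A list of 52 companion genes gave the rest of the transport machinery, from the sodium pump and basolateral entry to second messengers. Of these, 39 were tested along the villus, and in zone 5 against zone 1, 8 were higher, 19 lower and 12 did not pass, where 33.8% of all genes were called higher and 36.2% lower, with a median log2 fold change of -0.42 against -0.06 over all genes. Without TMM 5 were higher and 25 lower, where 19.4% and 52.6% of all genes were called, and without the library block 5 were higher and 6 lower, where 21.8% and 21.9% were. The counts by role group rest on 2 to 7 tested genes each and are descriptions. The part of the list that was higher was mostly the scaffold group, where 5 of 7 tested genes were higher and none lower, against 3 higher and 2 lower without TMM. The values with an adjusted p for single companion genes are fitted log2 differences of zone 5 from zone 1.

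The sodium pump, which sets the sodium gradient that the exchangers use, and the basolateral entry of bicarbonate were lower at the tip in their named genes. The pump subunit Atp1b1 was lower, at -1.49 ± 0.25 (adjusted p = 0.000185), and the pump regulator Fxyd3 at -1.81 (adjusted p = 0.0255). The bicarbonate cotransporters Slc4a7 and Slc4a4 were lower, at -1.09 (adjusted p = 0.0172) and -0.57 (adjusted p = 0.0284). Slc4a7 and Slc4a4 were lost without the jejunal library (adjusted p = 0.209 and 0.242) or the ileal library (adjusted p = 0.0684 and 0.268), and Fxyd3 without the duodenal library (adjusted p = 0.0735).

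The 3 potassium channel genes that hold the driving force for chloride secretion were all lower at the tip. Kcne3 was lower, at -4.20 (adjusted p = 5.78e-05), Kcnn4 at -3.49 (adjusted p = 0.000465) and Kcnq1 at -3.33 (adjusted p = 5.99e-06). Kcne3 went from 0.0860, 0.0216 and 0.0952 in zone 1 to 0.00155, 0 and 0.00688 in zone 5, where it was close to the limit of detection. All 3 were higher in ISC/proliferating cells than in enterocytes, with a median log2 fold change of 7.64, where 30.7% of all genes were called higher. The enterocyte levels behind this fold rested on few UMIs, 14, 6 and 24 for Kcne3, 7, 5 and 19 for Kcnn4 and 113, 20 and 34 for Kcnq1. Of the 3, Kcnn4 was also found in T cells, at 0.265, 0.382 and 0.5975, and the jejunal and ileal ISC/proliferating cells carried the T cell markers given above, while Kcne3 was at 0 to 0.0166 in T cells. The part of T cells in the Kcnn4 value was not tested.

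Among the relatives of the 8 genes, none of the tested SLC26, SLC9, carbonic anhydrase and CLCA genes was higher at the tip. Slc26a2 was lower, at -0.76 (adjusted p = 0.0036), 1 of 3 tested exchangers. Of 4 tested carbonic anhydrases 3 were lower: Car9 at -2.08 (adjusted p = 0.0187), Car13 at -1.35 (adjusted p = 0.000866) and Car12 at -1.03 (adjusted p = 0.0229). In the duodenum Car9 was flat, at 0.911 in zone 1 and 0.925 in zone 5, and its call was lost without the jejunal library (adjusted p = 0.148) or the ileal library (adjusted p = 0.225). That of Slc26a2 was lost without the jejunal library (adjusted p = 0.0918) and that of Clca3b without the ileal library (adjusted p = 0.084). Likewise 3 of 4 tested CLCA genes were lower, Clca3a1 at -2.50 (adjusted p = 6.25e-06), Clca3a2 at -2.30 (adjusted p = 0.0025) and Clca3b at -1.80 (adjusted p = 0.0017), the direction opposite to that of Clca4a and Clca4b. Clca3b was higher in ISC/proliferating cells than in enterocytes by 8.46 on the log2 scale. Of 2 other chloride channel genes tested, Clcn2 was higher by 1.21 (adjusted p = 2.55e-05) and Ano6 lower, at -1.21 (adjusted p = 7.11e-05).

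The scaffold group holds proteins that tether or assist apical exchangers. The exchanger cofactor Chp1 was higher at the tip by 1.73 ± 0.18 (adjusted p = 4.55e-06), the scaffold Slc9a3r1 (NHERF1) by 1.66 ± 0.17 (adjusted p = 3.23e-06) and ezrin (Ezr) by 1.53 ± 0.19 (adjusted p = 1.76e-05). Slc9a3r1 went from 4.11, 6.53 and 6.35 in zone 1 to 9.155, 12.0 and 16.2 in zone 5, with no overlap. So the scaffold was higher at the tip where Slc9a3 itself was not called.

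Of 7 second messenger genes 1 was higher and 2 were lower at the tip, or 5 lower without TMM. The prostaglandin receptor Ptger4 went from 0.109, 0.0742 and 0.102 in zone 1 to 0.756, 1.46 and 1.93 in zone 5, a log2 difference of 4.15 ± 0.52 (adjusted p = 1.66e-05). The cGMP-dependent kinase Prkg2, which acts on Cftr and Slc9a3, was lower, at -2.64 (adjusted p = 1.08e-05). The guanylin receptor Gucy2c was lower, at -0.77 (adjusted p = 0.0011).

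**Figure D5:**
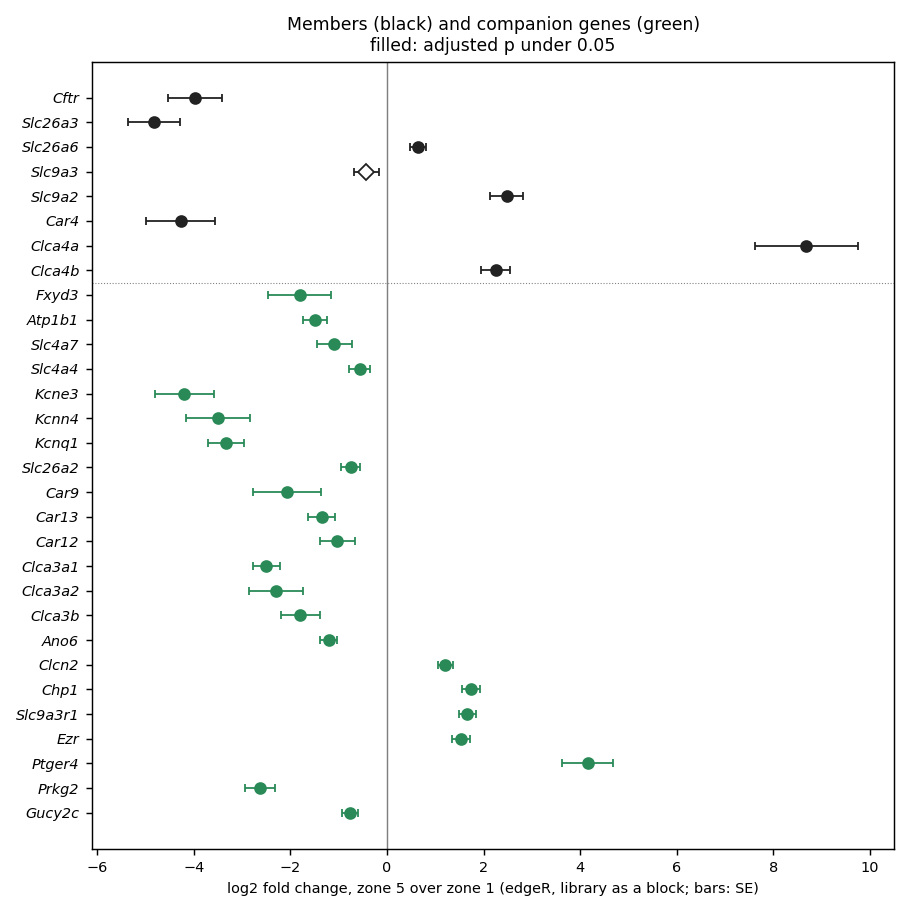
Fitted log2 fold change of zone 5 over zone 1 (horizontal axis) with SE bars for the 8 genes (black) and 22 named companion genes (green); filled markers passed an adjusted p of 0.05 and Slc9a3 is the one open marker. Clca4a lies farthest to the right at 8.68 and Slc26a3 farthest to the left at -4.82.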

How the data were processed

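RNA of single cells from 3 small intestinal segments was sequenced with 10x Genomics 3′ chemistry. The deposited values are UMI counts per gene and barcode, which the authors made with Cell Ranger 3.0.2 on GRCm38 (mm10) per the labels' processing notes, with no normalization. The study's cell filters were applied: UMIs between 800 and 50000, genes between 200 and 6000, mitochondrial share up to 40%.

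Cells were integrated and clustered with Seurat 5.3.0 in R 4.3.3 (2000 variable genes without the 8 genes and the 52 companions, 30 principal components, resolution 0.8), and clusters were named from marker lists. Part of the naming rule was set after the clusters were seen, and rebuilt names can differ from those of the study. Scrublet in scanpy 1.11.5 called 146 doublets, all ileal, which were kept. Zones were 5 classes of equal size, within a library, of the tip landmarks' share of all landmark levels. Members, gene lists and companions were chosen with earlier results of these data known.

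UMIs summed per library and class or zone (at least 10 cells a sum) were tested with edgeR 4.0.16 (filterByExpr, TMM, glmQLFTest, library as block, adjusted p under 0.05). The check on simulated counts returned, in the median, about the fold changes put in. It covered early enterocytes against enterocytes and zone 5 against zone 1, with the same effect in every library. Effects that differ between segments were not simulated. The block rests on the labels: every class and zone of a library comes from the same pool of mice. All 8 genes were named throughout. Companions were named as up to 3 per role group with the largest called change of zone 5 against zone 1, less some that are not reported here, and most-like genes as the top 3 by r among genes with a mean of at least 0.2 UMIs per 10000, on log2(level + 0.01). Alternatives were DESeq2 1.42.0, no TMM, no filter, no block, each library left out, other cell, zone and cluster limits, and 4 alternatives added after the data were seen, on unnamed clusters and doublets. Of the gene identifiers, 99.6% were in GENCODE M21. Images, reporter mice and cultured cells were not analysed here.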

Additional observations from a re-analysis of the deposited data

Results flagged for a closer look

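Some genes went up along the villus in one segment and down in another, each value resting on 1 library, and the difference between segments was not tested. For Slc26a6 the log2 ratio of zone 5 over zone 1 was 0.61 in the duodenum and 0.30 in the ileum against -0.67 in the jejunum. For Slc9a3 it was 0.12 in the duodenum against a jejunal value of -1.705 and an ileal value of -1.405. For zone 3 over zone 1 it was 0.60 against -0.33 and -0.37. With zone limits common to the 3 libraries, duodenal Slc9a3 was at 3.175 in zone 1 and 2.81 in zone 5. The sign of its duodenal ratio of zone 5 over zone 1 thus depended on the limits. For Clca4b the ratio of zone 5 over zone 3 was 0.54 in the duodenum and -0.52 in the jejunum. These ratios are of levels without TMM scaling.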

How the results depend on the processing

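Of the 48 class comparisons of the 8 genes 42 passed, and 38 to 46 did over the alternatives run, with 38 under no replicate block. Over all genes 38.0% to 62.3% were called across the 6 class contrasts, against 30.2% to 57.1% without the block. Of the 24 zone comparisons 18 passed, with 6 under no replicate block and 12 to 17 when a library was left out. Over all genes 69.96% were called in zone 5 against zone 1. That share was 43.7% without the block and 55.55% to 66.9% with a library left out. In zone 3 against zone 1, 7 genes passed, 1 without the block and 4 to 6 with a library left out (4 without the ileum). Over all genes 50% were called there, and 13.0% without the block. Without the duodenum, jejunum or ileum the share was 52%, 23.4% or 30.9%. In zone 5 against zone 3, 4 passed in edgeR, 0 without the block, 0 with 3 zones in place of 5 and 0 to 4 with a library left out (0 without the jejunum); at an unadjusted p under 0.05 these 3 settings held 2, 4 and 2 of the 8. Over all genes they called 0.00907%, 3.62% and 0%, so these losses were not particular to the 8. Some values that had not passed changed sign, and the cause was not tested. Car4 in EECs was -0.47 and became 0.23 with DESeq2, 0.41 without TMM and -1.35 to 1.83 with a library left out, and in tuft cells it ran from -3.29 to 1.04 with a library left out. Car4 in zone 5 against zone 3 was 0.04 and became -0.14 with DESeq2, -0.30 without TMM, -0.0053 without a filter, -0.53 at 20% mitochondrial UMIs, -0.34 with 3 zones, -0.56 with common limits, -0.17 with fewer landmarks, -0.43 with the unnamed early cluster and -0.99 to 0.13 with a library left out. Slc9a3 in zone 3 against zone 1 became -0.0886 without TMM and -0.0769 to 0.25 with a library left out, and in zone 5 against zone 1 it became 0.10 without the block. Slc26a6 in zone 5 against zone 3 became -0.26 without TMM and -0.0790 to 0.27 with a library left out. The log2 difference of Slc26a3 between ileum and duodenum became 0.0099 with zones weighted equally. Of the other single-gene values 953 kept their direction and side of the threshold or their range, 44 lost and 18 gained the call, and 37 moved. Depth and 1 library per segment limit what can be said of Car4 and Cftr at the villus tip.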

Other observations

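One unnamed cluster of 1286 cells had its highest marker score for early enterocytes but was left unnamed. Its leading genes included Ctrb1, Prss2, Cela3b, Pnlip and Cpa1, and 0 of them were early enterocyte markers. The median depth was 4478 UMIs, against 24350 in early enterocytes. The cluster held Cftr at 0.463 UMIs per 10000, Slc26a3 at 1.35, Slc26a6 at 3.50, Slc9a3 at 1.09 and Slc9a2 at 0.555. Early enterocytes of the 3 libraries together held these at 0.578, 1.66, 3.20, 1.11 and 0.457. Car4 was at 0.975, Clca4a at 0.766 and Clca4b at 4.53, farther from the early enterocyte levels of 1.56, 0.395 and 2.15. The cluster held 865 ileal, 275 jejunal and 146 duodenal cells.

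Barcodes above 40% mitochondrial UMIs, which the filter removed, numbered 5068 in the duodenum, 3546 in the jejunum and 1222 among ileal barcodes. Per 10000 UMIs outside the mitochondrial genome, they held Slc9a3 at 6.975, 2.43 and 0.370 (duodenum, jejunum, ileum), against 4.66, 1.46 and 0.157 in the kept cells of all classes. Cftr was at 0.638, 0.4555 and 0.555 against 0.456, 0.285 and 0.193. Clca4a was at 2.41, 11.6 and 6.52 against 3.08, 16.6 and 14.6. Slc9a3 and Cftr were thus higher, and Clca4a lower, in the removed barcodes of each segment. The order of the segments for Slc9a3 was the same in both. Slc26a3 and Slc26a6 were also higher in the removed barcodes of each segment, while Slc9a2, Car4 and Clca4b had no common direction. The removed barcodes were not assigned to cell classes, so a difference in cell mix cannot be told apart.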
